A study of Mus musculus with 6 samples.

Results

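The basement membrane and Fraser complex genes examined here are 10 genes of mouse embryonic fibroblasts (MEF) in the first days of reprogramming. They were taken by symbol from the deposited count table: Fras1, Frem1 and Frem2 of the Fraser complex, the laminin genes Lama2, Lama4, Lama5, Lamb1 and Lamc1, and the nidogen genes Nid1 and Nid2. All 10 were found among the 16982 genes of the table, and all 10 were among the 13386 genes tested.

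RNA was collected on day 3 of reprogramming, which had been started with retroviral vectors for OCT4, SOX2, KLF4 and C-MYC (OSKM), from 3 WT and 3 Rnf20-/- (KO) cultures of the C57BL/6 background. RNF20 is the E3 ligase that places ubiquitin on histone H2B, and the comparison asks which genes depend on it in early reprogramming. According to the methods of the study, the KO cells came from embryos with loxP sites in both copies of Rnf20 and a ubiquitous, tamoxifen-inducible Cre, and the deletion was induced in culture. The labels describe the WT cells as wild type and list all 6 cultures as untreated, and whether the WT cells carried Cre or received the drug is not given in the sources used here. The labels do not say whether the replicates came from separate embryos. The Y-linked gene Ddx3y had 0 counts in KO1 and KO3 and 2686 in KO2, so the KO libraries were not repeat measurements of 1 culture. All WT libraries held counts of Ddx3y, so its presence is in part confounded with genotype. The p-values measure the spread between these samples, which among the WT libraries may be technical.

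A basement membrane is the thin sheet of matrix that lies under epithelia and around muscle, fat and vessel cells. Laminins, each built of an alpha, a beta and a gamma chain, assemble on the cell surface, type IV collagen forms a separate network, and nidogens and perlecan join the networks. The Fraser complex of FRAS1, FREM1 and FREM2 is best known for holding the embryonic epidermis to the dermis. FRAS1 and FREM2 are chiefly made by epithelial cells and FREM1 chiefly by mesenchymal cells.

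The promoters of 6 of the 10 genes are listed by RefSeq, in 7 windows. Those of Frem1, Frem2, Lama5 and Nid1 are printed to set the Fraser complex genes that have an entry beside a laminin and a nidogen gene whose libraries overlapped between the genotypes. They are taken from the window of 250 bases before the RefSeq start (GRCm38.p6), 5′ to 3′ on the strand of the gene. The printed bases stop at the first base that GENCODE places in an exon of the gene. For Nid1 and the first start of Frem1 they therefore end short of the RefSeq start. Capitals mark a GC box (GGGCGG or CCGCCC) or a CCAAT box (CCAAT or ATTGG). Frem2 lies at chr3:53657356-53657605, minus strand.
Frem2: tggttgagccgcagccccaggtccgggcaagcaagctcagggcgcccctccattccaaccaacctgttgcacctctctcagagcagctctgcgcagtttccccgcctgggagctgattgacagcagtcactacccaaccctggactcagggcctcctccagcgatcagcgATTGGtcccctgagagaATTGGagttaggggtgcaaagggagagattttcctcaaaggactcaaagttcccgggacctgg
Frem1 has 2 listed starts, the first at the 5′ end of the gene (chr4:83052340-83052416, minus strand) and the second inside it (chr4:83021103-83021352, minus strand). The second window lies within the gene and outside its GENCODE exons, and whether it acts as a promoter was not tested.
Frem1, first start: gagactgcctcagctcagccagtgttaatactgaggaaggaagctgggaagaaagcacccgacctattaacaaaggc
Frem1, second start: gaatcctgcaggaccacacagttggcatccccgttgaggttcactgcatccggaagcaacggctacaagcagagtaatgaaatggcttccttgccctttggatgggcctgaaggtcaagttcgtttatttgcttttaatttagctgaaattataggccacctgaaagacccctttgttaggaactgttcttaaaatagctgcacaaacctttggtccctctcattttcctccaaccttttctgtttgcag
Lama5 lies at chr2:180225860-180226109, minus strand.
Lama5: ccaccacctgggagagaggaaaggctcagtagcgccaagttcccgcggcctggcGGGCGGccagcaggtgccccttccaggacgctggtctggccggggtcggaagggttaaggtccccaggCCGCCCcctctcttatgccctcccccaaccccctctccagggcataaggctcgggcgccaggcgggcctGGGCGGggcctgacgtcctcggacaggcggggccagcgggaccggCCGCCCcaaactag
Nid1 lies at chr13:13437352-13437550, plus strand.
Nid1: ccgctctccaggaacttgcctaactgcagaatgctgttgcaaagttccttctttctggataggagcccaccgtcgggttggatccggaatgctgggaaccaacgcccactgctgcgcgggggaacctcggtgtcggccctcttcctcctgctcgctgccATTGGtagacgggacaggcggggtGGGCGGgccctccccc
In the whole window of 250 bases before the start, Frem2 held 0 GC boxes and 2 CCAAT boxes, and both windows of Frem1 held 0 of either. Lama5 held 4 GC boxes and Nid1 held 1 GC box and 1 CCAAT box. Among the windows not printed, that of Lama2 held 0 of either and that of Lamb1 held 2 GC boxes and 1 CCAAT box. Across 32851 windows of the same length, 32.7% held a GC box and 33.8% held a CCAAT box. A TATA box (TATAAA or TTTATA) was found in 0 of the 7 windows and in 12.4% of all windows.

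The libraries held between 20545442 and 21746898 counts each, and 3 counts in a library equal about 0.142 to 0.143 CPM, which are counts scaled to a common library size with TMM factors. Rnf20 had a mean of 107 ± 0.781 CPM in WT and 17.9 ± 1.29 CPM in KO libraries (SD, n = 3 each), a log2 fold change of -2.57 (adjusted p = 0.000163, edgeR's quasi-likelihood test). KO replicate 3 (KO3) stood apart from the other KO libraries. The chi-square statistic of the counts per gene, close to 1 for pure sampling noise, was 8.57 between KO1 and KO2 and was 92.4 and 101 between KO3 and these. Between pairs of WT libraries it was 8.92, 6.04 and 6.33. The Y-linked gene Ddx3y had 0 counts in KO1 and KO3 and 94.4 to 128 CPM in the other 4 libraries. Values without KO3 are therefore given beside those from all libraries.

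Among the 10 genes, the Fraser complex genes had the lowest levels in KO cells relative to WT, and the laminin and nidogen genes differed less and not all in 1 direction. At an adjusted p under 0.05, 3 of the 10 genes fell in KO cells (Fras1, Frem1 and Lama4) and 0 rose, with edgeR's quasi-likelihood test. Of all 13386 genes tested, 16.6% fell and 16.4% rose by the same test. Without WT1, WT2 or WT3, 0 of the 10 genes passed as lower (3 at an unadjusted p under 0.05 in each case), and 0 passed with a term for the presence of Ddx3y counts, which separates KO1 and KO3 from the other libraries. At an unadjusted p under 0.05 with all libraries, 5 of the 10 genes were lower and 0 were higher. DESeq2, edgeR's exact test and limma voom also placed 0 of the 10 genes higher at an adjusted p under 0.05. Shares of all genes were not taken at an unadjusted p, without single WT libraries or with the Ddx3y term. These counts therefore do not set the 10 genes apart from other genes. The thresholds of the study (FDR under 0.01, more than 1 on the log2 scale and FPKM above 1, the last read here as a mean above 1 in at least 1 genotype) were met by 0 of the 10 genes, against 2.08% of all genes as lower and 1.5% as higher. The FDR was taken from edgeR's quasi-likelihood test, so these are not the calls of the study. By its own analysis the paper lists more genes in both directions than passed here. The paper also presents RT-qPCR of Fras1 among the checks of its RNA-seq results, which was not compared here. The median log2 fold change of the 10 genes was -0.35, and that of all genes tested was -0.00032.

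Without KO3, 6 of the 10 genes were lower (Fras1, Frem1, Frem2, Lama2, Lama4 and Lamc1) and 2 were higher (Lama5 and Nid2) at an adjusted p under 0.05, where 24.2% of all genes were lower and 23.9% higher. By the thresholds of the study 3 of the 10, the Fraser complex genes, were then lower, against 3.63% of all genes, and 0 were higher, against 2.22%. The median log2 fold change of the 10 genes was -0.23 without KO3. In 6 of the 10 genes all KO libraries lay below all WT libraries, which was so for 28.2% of all genes tested. In 0 genes did all KO libraries lie above WT (26.6% of all genes tested), and in the other 4 the libraries overlapped. KO3 was the lowest of all 6 libraries in each of the 10 genes, and it was the lowest in 34.0% of all genes tested.

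**Figure D1:**
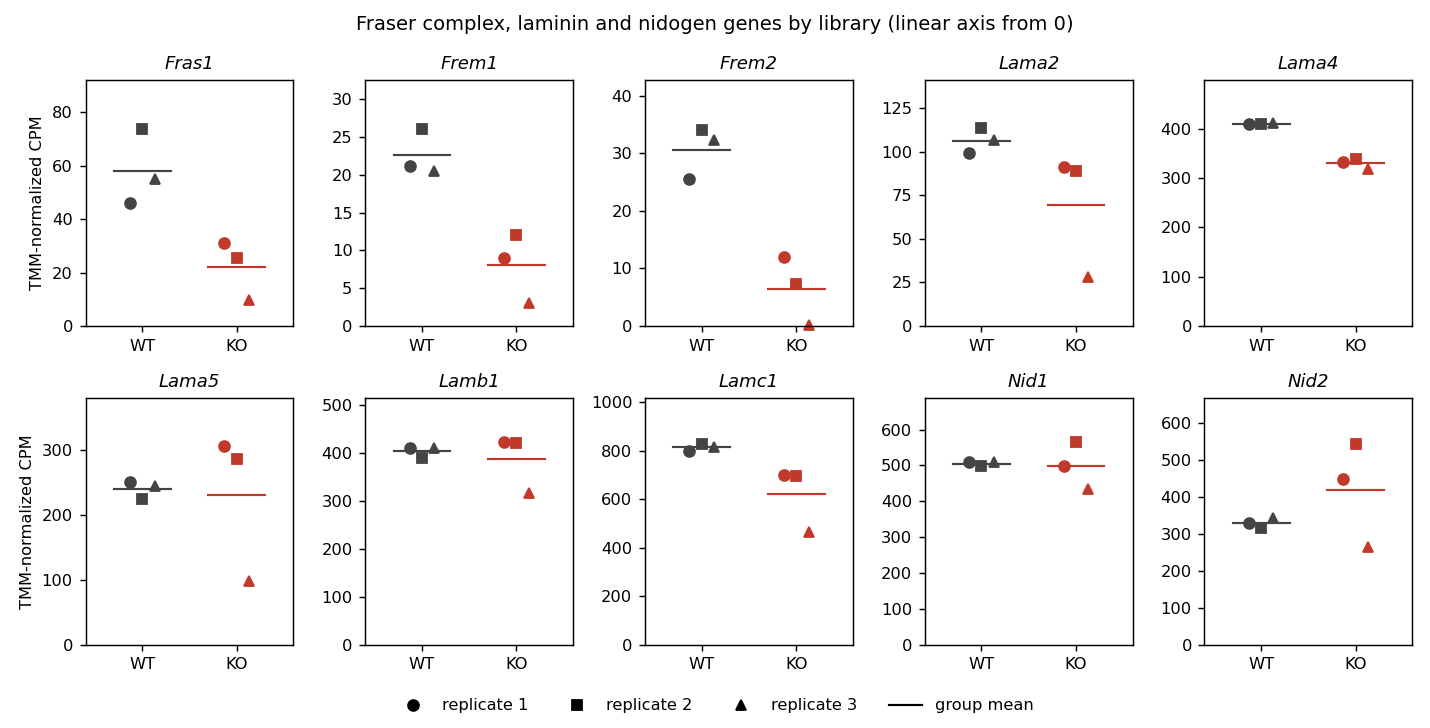
TMM-normalized CPM of each of the 10 genes in every library, on linear axes that start at 0, with WT in grey and KO in red, 1 symbol per replicate number and a line at the mean of each group. KO3 (red triangle) is the lowest library in every panel, and Frem2 stands at 0.238 CPM there.

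Frem2 encodes a transmembrane protein of the complex (chromosome 3 of GRCm38, 53513938 to 53657355, minus strand). It had 25.5, 33.9 and 32.3 CPM in WT1 to WT3 and 11.9, 7.22 and 0.238 CPM in KO1 to KO3. The groups did not overlap, and KO3 held 5 counts of the gene, against 250 in KO1 and 152 in KO2. The mean of 6.46 ± 5.88 CPM in KO libraries was 21.1% of the WT mean of 30.6 ± 4.49 CPM (SD, n = 3 each). Its log2 fold change, -2.24 with a standard error (SE) of 0.851, was the lowest of the 10 genes and did not pass the threshold (adjusted p = 0.0844, edgeR's quasi-likelihood test). Without KO3 it was -1.67 (SE 0.193, adjusted p = 7.78e-05, same test). The promoter printed for Frem2 was the window with 2 CCAAT boxes.

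Fras1 encodes the founding protein of the complex, a very large transmembrane matrix protein (chromosome 5, 96373955 to 96784728, plus strand). Its levels were 45.8, 73.5 and 54.8 CPM in the WT libraries and 31.1, 25.3 and 9.57 CPM in the KO libraries. Again the groups did not overlap, although WT1 and KO1 lay closer to each other than WT1 did to WT2. Fras1 fell by 1.40 on the log2 scale (SE 0.410, adjusted p = 0.0399, edgeR's quasi-likelihood test). KO1, KO2 and KO3 held 53.5%, 43.5% and 16.5% of the WT mean. The call was lost without WT1, WT2, WT3 or KO2, with adjusted p-values of 0.077, 0.13, 0.106 and 0.0725 and log2 fold changes from -1.55 to -1.20, and without KO3 the log2 fold change was -1.04 (adjusted p = 0.000799). Exons of Gm42604 lie across those of Fras1 on the opposite strand, and whether the counting used the strand is not given in the sources used here.

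Frem1 encodes the secreted member of the complex (chromosome 4, 82897920 to 83052339, minus strand). It was counted at 21.2, 26.0 and 20.5 CPM in WT1 to WT3 and at 9.02, 12.1 and 3.05 CPM in KO1 to KO3. All KO libraries were below all WT libraries, at 40.0%, 53.4% and 13.5% of the WT mean. Frem1 fell by 1.49 on the log2 scale (SE 0.432, adjusted p = 0.0393, edgeR's quasi-likelihood test), and without KO3 by 1.10 (SE 0.148, adjusted p = 0.000215). The call was lost without WT1, WT2, WT3 or KO1, with adjusted p-values of 0.0969, 0.124, 0.103 and 0.0708 and log2 fold changes between -1.58 and -1.38. Frem3, the paralogue of these genes, had 1 count in KO3 and 0 counts in the other 5 libraries.

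Markers of other cell types were read beside the Fraser complex genes, since FRAS1 and FREM2 are largely epithelial proteins. Of 10 epithelial markers 9 were measured, and their summed level was 61.8 to 69.1 CPM in WT and 28.2 to 87.6 CPM in KO libraries, lowest in KO3. KO3 was the lowest of the 6 libraries in 6 of these 9 markers (Epcam, Cdh1, Krt8, Krt14, Krt18 and Esrp1) and not in the other 3 (Krt5, Krt19 and Esrp2). It was the lowest in 34.0% of all genes tested. Some of these markers were near the floor. Esrp1 had 0 to 6 counts per library and was not tested, and in KO3 Epcam had 6 counts and Krt18 had 7. Krt8, a keratin of simple epithelia, had 30.3, 28.4 and 29.5 CPM in WT and 18.1, 12.4 and 0.714 CPM in KO libraries (log2 fold change -1.50, adjusted p = 0.189), and it was lower without KO3 (-0.95, adjusted p = 0.000347). Krt19, another keratin of simple epithelia, was the 1 epithelial marker past the threshold, and it rose from 12.7, 13.2 and 15.4 CPM to 43.2, 29.7 and 18.4 CPM (log2 fold change 1.14, adjusted p = 0.0274, edgeR's quasi-likelihood test, and 1.41 without KO3, adjusted p = 4.78e-05). The epithelial markers thus did not move in 1 direction. Cdh1, which encodes E-cadherin, had 9.98, 9.83 and 10.01 CPM in WT and 13.4, 9.40 and 1.81 CPM in KO1 to KO3, and Epcam was under 1.2 CPM in all 6 libraries. In bulk RNA, fewer cells of a type and less RNA per cell cannot be told apart, and the part of the cell mixture in the Fraser complex values was not tested.

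The other marker lists differed between libraries as well. The summed level of 10 fibroblast markers was 30976 to 33677 CPM in WT and 22033 to 40657 CPM in KO libraries, and Col1a1 exceeded 7067 CPM in every library. Of the fibroblast markers, Thy1 and Pdgfra fell, with log2 fold changes of -1.11 and -1.22 (adjusted p = 0.00251 and 0.0185, edgeR's quasi-likelihood test) and of -1.06 and -0.95 without KO3. The 10 macrophage markers summed to 52.8 to 111 CPM in WT, to 87.9 and 54.7 CPM in KO1 and KO2 and to 245 CPM in KO3. Among the 9 mural markers measured, which include smooth muscle genes, the sums were 762 to 836 CPM in WT and 1408 to 1602 CPM in KO libraries. The sums of the 9 Schwann and neural markers measured were 198 to 221 and 305 to 384 CPM, those of the 10 endothelial markers 74.9 to 95.3 and 67.4 to 112 CPM, and those of the 7 muscle markers 9.32 to 11.7 and 6.57 to 15.8 CPM. Beside Thy1, Pdgfra and Krt19, the markers past an adjusted p under 0.05 in these lists were Acta2 and Nes, both as higher, with log2 fold changes of 1.23 and 0.77 and of 1.07 and 0.86 without KO3. Of the defining markers, Ptprc did not exceed 4.91 CPM and Pecam1 did not exceed 0.525 CPM. Pecam1 had 2, 1 and 0 counts in WT and 11, 10 and 11 in KO libraries, and it was not tested. The muscle markers Myod1 and Myog were at or under 3 counts in every library.

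**Figure D2:**
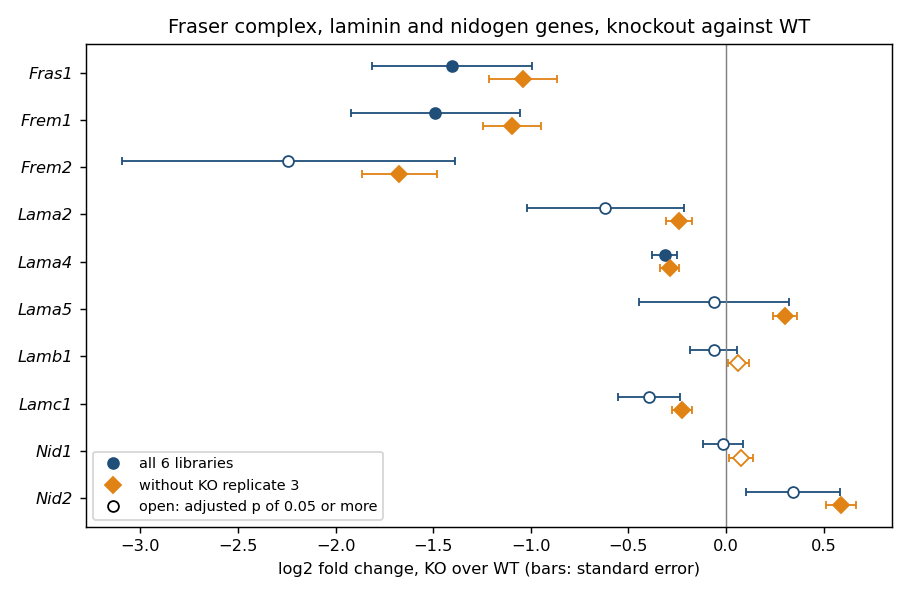
Log2 fold change of KO over WT for the 10 genes, with bars of 1 standard error, from all 6 libraries (circles) and without KO3 (diamonds). Filled symbols passed an adjusted p under 0.05 in edgeR's quasi-likelihood test, which 3 genes did with all libraries and 8 did without KO3.

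Lama4 encodes the alpha chain that is typical of mesenchymal and vessel basement membranes (chromosome 10, 38965515 to 39110188, plus strand). Its levels were 409, 410 and 411 CPM in the WT libraries and 333, 338 and 317 CPM in the KO libraries. Every KO library lay below every WT library, and the spread within a genotype was small, also for KO3. Lama4 fell by 0.31 on the log2 scale (SE 0.0633, adjusted p = 0.0136, edgeR's quasi-likelihood test) to 80.4% of the WT mean, and without KO3 by 0.29 (adjusted p = 0.000888). The adjusted p was 0.0560, 0.0582 and 0.0621 without WT1, WT2 and WT3, with log2 fold changes of -0.32, -0.32 and -0.31.

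Lama2 encodes the alpha chain of muscle and Schwann cell basement membranes (chromosome 10, 26980036 to 27619758, minus strand). It had 99.1, 114 and 107 CPM in WT1 to WT3 and 91.2, 88.8 and 28.1 CPM in KO1 to KO3. KO1 and KO2 were just below the lowest WT library, whereas KO3 held 26.4% of the WT mean. The log2 fold change was -0.62 (SE 0.401, adjusted p = 0.267, edgeR's quasi-likelihood test), and without KO3 it was -0.24 (SE 0.0674, adjusted p = 0.0139). Exons of Gm48084 overlap those of Lama2 on the opposite strand.

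Lama5 encodes the most widespread alpha chain of epithelial basement membranes (chromosome 2, 180176373 to 180225859, minus strand). The WT libraries had 251, 224 and 244 CPM, and the KO libraries had 306, 286 and 97.8 CPM. KO1 and KO2 were above all WT libraries and KO3 was below all of them, at 40.8% of the WT mean. The log2 fold change from all libraries was -0.06 (SE 0.384, adjusted p = 0.913, edgeR's quasi-likelihood test), and without KO3 it was 0.30 (SE 0.0616, adjusted p = 0.00247).

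Lamc1 encodes the gamma chain shared by most laminins (chromosome 1, 153218922 to 153332786, minus strand). It had 799, 828 and 816 CPM in WT and 699, 695 and 464 CPM in KO1 to KO3. The groups did not overlap, and the mean of the KO libraries was 76.1% of that of WT. The log2 fold change was -0.39 (SE 0.160, adjusted p = 0.1, edgeR's quasi-likelihood test), and without KO3 it was -0.22 (adjusted p = 0.00508). Lamb1 encodes the main beta chain (chromosome 12, 31265234 to 31329644, plus strand). Its levels were 410, 388 and 409 CPM in WT and 422, 419 and 316 CPM in KO libraries, so that KO1 and KO2 were slightly above WT and KO3 was below it. Its log2 fold change was -0.06 (SE 0.121, adjusted p = 0.717, same test), and without KO3 it was 0.06 (adjusted p = 0.326).

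Nid1 and Nid2 encode the nidogens, which bind the laminin gamma chain and type IV collagen. Nid1 (chromosome 13, 13437551 to 13512269, plus strand) had 509, 498 and 508 CPM in WT1 to WT3 and 498, 567 and 435 CPM in KO1 to KO3, on both sides of the WT range. Its log2 fold change was -0.02 (SE 0.104, adjusted p = 0.917, edgeR's quasi-likelihood test) and 0.08 without KO3 (adjusted p = 0.335). Nid2 (chromosome 14, 19751265 to 19811787, plus strand) had 330, 316 and 343 CPM in WT and 448, 542 and 265 CPM in KO libraries. KO1 and KO2 held 136% and 164% of the WT mean and KO3 held 80.3%. The log2 fold change of Nid2 was 0.34 (SE 0.240, adjusted p = 0.299, same test), and without KO3 it was 0.59 (SE 0.0763, adjusted p = 0.000164). Exons of Gm48682 overlap those of Nid1, and exons of Rtraf overlap those of Nid2, both on the opposite strand.

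To compare levels between genes, CPM values were divided by the deposited gene length in kilobases (RPKM). In WT libraries Lamc1 had the highest RPKM of the 10 genes (107 ± 1.91, SD, n = 3), followed by Nid1 (83.6 ± 1.02). Lamb1 (69.6 ± 2.14), Lama4 (67.8 ± 0.217) and Nid2 (67.5 ± 2.78) came next, and the libraries of Lamb1 overlapped those of Lama4 and these overlapped those of Nid2. Lama5 (20.9 ± 1.19), Lama2 (10.9 ± 0.737) and Fras1 (3.66 ± 0.892) were each separated from their neighbours, and Frem2 (2.48 ± 0.363) and Frem1 (2.28 ± 0.302) overlapped. The Fraser complex genes were thus the lowest of the 10 in WT. In KO libraries Nid2 (85.6 ± 28.9), Nid1 (82.7 ± 10.9) and Lamc1 (81.3 ± 17.6) had the highest RPKM and overlapped, and Frem2 (0.523 ± 0.476) had the lowest.

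The makeup of the laminin alpha chains was read as the share of each gene in the summed RPKM of Lama1 to Lama5. Lama4 held 66.7%, 66.8% and 66.5% of this sum in WT1 to WT3 and 58.8%, 60.2% and 80.0% in KO1 to KO3. Its share was nearly the same in the WT libraries, lower in KO1 and KO2 and higher in KO3, and the means of 66.7% and 66.3% did not differ beyond this spread (p = 1, exact permutation test, two-sided, in which 3 against 3 samples cannot go below 0.1). Without KO3 the difference of KO minus WT was -7.21 percentage points (p = 0.2, the same exact test). The groups then did not overlap, and 0.2 is the smallest p that this test can give without KO3. The share of Lama5 was 21.5%, 19.3% and 20.8% in WT and 28.4%, 26.8% and 13.0% in KO1 to KO3 (p = 0.8, exact permutation test). Lama2 held 9.97%, 11.4% and 10.6% in WT and 9.92%, 9.74% and 4.36% in KO libraries, and its groups did not overlap (p = 0.1, exact permutation test, the smallest it can give). Lama1 also did not overlap, with 0.976% to 1.46% in WT and 1.56% to 2.02% in KO libraries (p = 0.1, exact permutation test), and Lama3 did, with 0.844% to 0.996% and 0.649% to 1.66% (p = 0.4, exact permutation test). These 5 tests are not independent, since the shares sum to the whole, and 0 of them can pass an adjusted threshold at this number of samples.

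**Figure D3:**
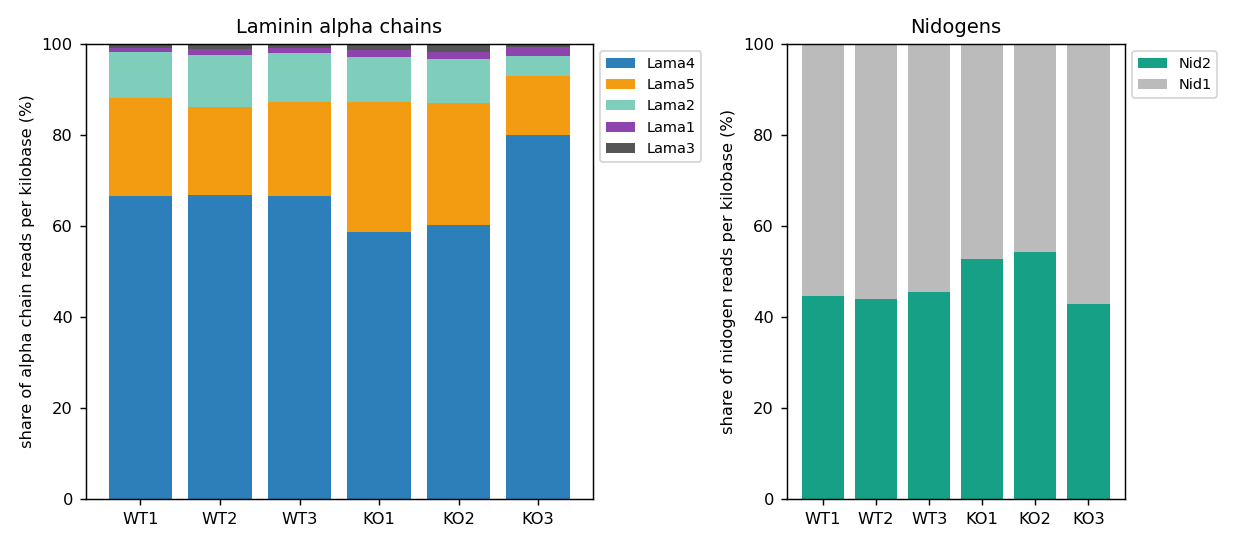
Stacked bars of the share of each gene in the summed reads per kilobase of the laminin alpha chain genes (left) and of the nidogen genes (right), in percent, for each library. Lama4 holds 80.0% of the alpha chain sum in KO3 against 58.8% to 66.8% in the other 5 libraries.

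The summed RPKM of all alpha chain genes was 102 ± 0.483 in WT and 84.1 ± 16 in KO libraries, with 93.7, 92.9 and 65.6 in KO1 to KO3. That of the 3 gamma chain genes was 108 ± 1.95 in WT and 86.5 ± 16.5 in KO libraries, and that of the 3 beta chain genes was 141 ± 4.33 and 123 ± 23.3. KO1 and KO2 thus lay below WT in the alpha and gamma sums, and for the beta chains they lay inside the WT range of 136 to 145. Of the nidogen reads per kilobase, Nid2 held 44.5%, 44.0% and 45.5% in WT and 52.7%, 54.2% and 42.9% in KO1 to KO3. The difference of KO minus WT was 5.30 percentage points (p = 0.4, exact permutation test, two-sided), and 8.81 without KO3 (p = 0.2, same test). Without KO3 the groups did not overlap, and 0.2 is the smallest p that the test can then give.

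Other genes of the basement membrane were read in 5 lists of 63 genes, of which 62 were found in the count table and 59 were tested. Of these 59 genes 6 fell and 12 rose in KO cells at an adjusted p under 0.05, that is 10.2% and 20.3%, beside 16.6% and 16.4% of all genes tested. Without KO3, 12 were lower and 23 were higher (20.3% and 39%), beside 24.2% and 23.9% of all genes. The number that fell was 3 without WT2, WT3 or KO1. All 18 genes that passed with all libraries also passed in the same direction without KO3. This was not an independent check. Both fits use the same other libraries, and a larger share of all genes passed without KO3. The median log2 fold change of the 59 genes was 0.22 with all libraries and 0.15 without KO3. By the thresholds of the study 2 were lower and 7 were higher (3.39% and 11.9%), beside 2.08% and 1.5% of all genes tested. Without KO3 these were 2 and 8 (3.39% and 13.6%), beside 3.63% and 2.22%.

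Of 7 tested partners of the Fraser complex, 1 fell, 1 rose and 5 did not pass. The shares were 14.3% and 14.3%, beside 16.6% and 16.4% of all genes tested. Pcsk5, which encodes a proprotein convertase, had 34.8, 41.2 and 39.8 CPM in WT and 18.1, 19.4 and 11.8 CPM in KO libraries and fell by 1.23 on the log2 scale (SE 0.191, adjusted p = 0.00680, edgeR's quasi-likelihood test). Grip1 encodes the scaffold protein that brings FRAS1 and FREM2 to the basal cell surface. It was low in all libraries, with 1.38, 0.949 and 0.949 CPM in WT and 3.15, 4.23 and 2.19 CPM in KO libraries, and rose by 1.54 (SE 0.335, adjusted p = 0.0166, same test), with an adjusted p of 0.0721 without WT2 and 0.0756 without WT3. Npnt, a ligand of integrin α8β1 in the embryonic kidney, had 24.9 to 31.5 CPM in WT and 41.3, 39.7 and 15.6 CPM in KO libraries (adjusted p = 0.604), and it was higher without KO3 (log2 fold change 0.58, adjusted p = 0.00129). Without KO3 the log2 fold change of Pcsk5 was -1.04 and that of Grip1 was 1.75. Grip1 and Pcsk5 each kept all KO libraries on 1 side of WT, whereas KO3 was opposite to KO1 and KO2 for Npnt.

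Among the 6 other laminin chain genes 2 rose (33.3%) and 0 fell, beside 16.4% and 16.6% of all genes tested. Lamb3 encodes a beta chain of epithelial laminins. Lamb3 had 3.57, 2.14 and 3.65 CPM in WT and 7.64, 5.94 and 6.43 CPM in KO libraries, and rose by 1.09 on the log2 scale (adjusted p = 0.0196, edgeR's quasi-likelihood test), and its adjusted p was 0.0538, 0.0522, 0.0587 and 0.0511 without WT1, WT2, WT3 and KO1. Without KO3 its log2 fold change was 1.12 (adjusted p = 0.00424). Lama3 had 9.08, 10.7 and 9.68 CPM in WT and 13.3, 16.3 and 4.52 CPM in KO libraries (adjusted p = 0.721), and it was higher without KO3 (log2 fold change 0.59, adjusted p = 0.00395). Lamb2, the other abundant beta chain, had a log2 fold change of -0.36 (adjusted p = 0.148) and of -0.17 without KO3 (adjusted p = 0.0205).

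Of the 6 type IV collagen genes 1 rose (16.7%) and 0 fell, beside 16.4% and 16.6% of all genes tested. The 1 that rose was Col4a4, at 0.807 to 1.04 CPM in WT and 1.66 to 2.0 CPM in KO libraries. It had a log2 fold change of 1.01 (adjusted p = 0.0293, edgeR's quasi-likelihood test). Its call was lost without any of the libraries except KO3, with adjusted p-values from 0.0600 to 0.105, and without KO3 the adjusted p was 0.0395. Col4a1, the most abundant of these genes and the core of the collagen network, had 1407, 1483 and 1545 CPM in WT and 1530, 1744 and 1235 CPM in KO libraries, a log2 fold change of 0.02 (adjusted p = 0.901) that was -0.09 without KO2 and -0.01 without WT1. Exons of Col4a1 and Col4a2 overlap on opposite strands.

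The 20 network and linker genes included 5 that rose, 2 that fell and 13 that did not pass. Thus 25% rose and 10% fell, beside 16.4% and 16.6% of all genes tested. Efemp1 and Fbln2, both of the fibulin family, rose by 1.22 and 1.06 on the log2 scale (adjusted p = 0.00178 and 0.00228, edgeR's quasi-likelihood test). Efemp1 went from 153, 174 and 167 CPM in WT to 364, 416 and 370 CPM in KO libraries, and Fbln2 from 840 to 970 CPM to 1766 to 1987 CPM. Fbln1, another fibulin, fell from 126, 114 and 128 CPM to 43.9, 44.3 and 23.1 CPM, which is -1.73 on the log2 scale (SE 0.244, adjusted p = 0.00553, same test). Without KO3 the log2 fold changes of Efemp1, Fbln2 and Fbln1 were 1.25, 1.03 and -1.48. Fibulins thus moved in both directions. Sparc, which encodes a collagen-binding matricellular protein, rose by 0.70 (adjusted p = 0.00782), Tinagl1 by 1.25 (adjusted p = 0.00552) and Hmcn2, which encodes a hemicentin, by 1.61 from a low level of 1.36 ± 0.271 CPM (adjusted p = 0.00779), all by the same test. Without KO3 their log2 fold changes were 0.61 for Sparc, 1.02 for Tinagl1 and 1.51 for Hmcn2. Agrn, the heparan sulfate proteoglycan agrin, fell by 0.40 (adjusted p = 0.0194), and by 0.44 without KO3. Hspg2, which encodes perlecan, had 1641, 1554 and 1579 CPM in WT and 2722, 2853 and 1622 CPM in KO libraries (adjusted p = 0.0680), and without KO3 it was higher by 0.81 on the log2 scale (adjusted p = 4.17e-06). Agrn and Hspg2 were named after their values were seen.

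Of the 20 genes for receptors and for the enzymes that glycosylate dystroglycan, 3 rose, 3 fell and 14 did not pass. These shares, 15% and 15%, are near the 16.4% and 16.6% of all genes tested. Itga3, Itga6 and Itgb1, which encode subunits of laminin-binding integrins, rose by 1.37, 1.01 and 0.81 on the log2 scale (adjusted p = 0.00185, 0.00337 and 0.00279, edgeR's quasi-likelihood test). For Itgb1 the levels were 864, 840 and 813 CPM in WT and 1380, 1522 and 1496 CPM in KO libraries, and for Itga3 they were 9.49 to 11.6 CPM and 25.5 to 29.1 CPM. Without KO3 the log2 fold changes of Itga3, Itga6 and Itgb1 were 1.39, 1.05 and 0.79. Itga2, a subunit of a collagen and laminin receptor, fell by 1.62 (adjusted p = 0.00739) from 4.05 ± 0.262 to 1.32 ± 0.338 CPM (SD, n = 3 each). Sgce, which encodes a sarcoglycan, fell by 0.42 (adjusted p = 0.0194), and Pomt1, which encodes an O-mannosyltransferase of dystroglycan and whose exons overlap those of Uck1 on the opposite strand, fell by 0.39 (adjusted p = 0.0300). The adjusted p of Sgce was 0.0525 to 0.0769 without any one library other than KO3, and that of Pomt1 was 0.0729 to 0.107 without WT1, WT2, WT3 or KO1. Without KO3 the log2 fold changes of Itga2, Sgce and Pomt1 were -1.60, -0.49 and -0.34. Dag1, which encodes dystroglycan itself, had 272 to 295 CPM in WT and 304 to 328 CPM in KO libraries, and its log2 fold change of 0.17 did not pass (adjusted p = 0.106), and without KO3 it was 0.14 (adjusted p = 0.0563).

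**Figure D4:**
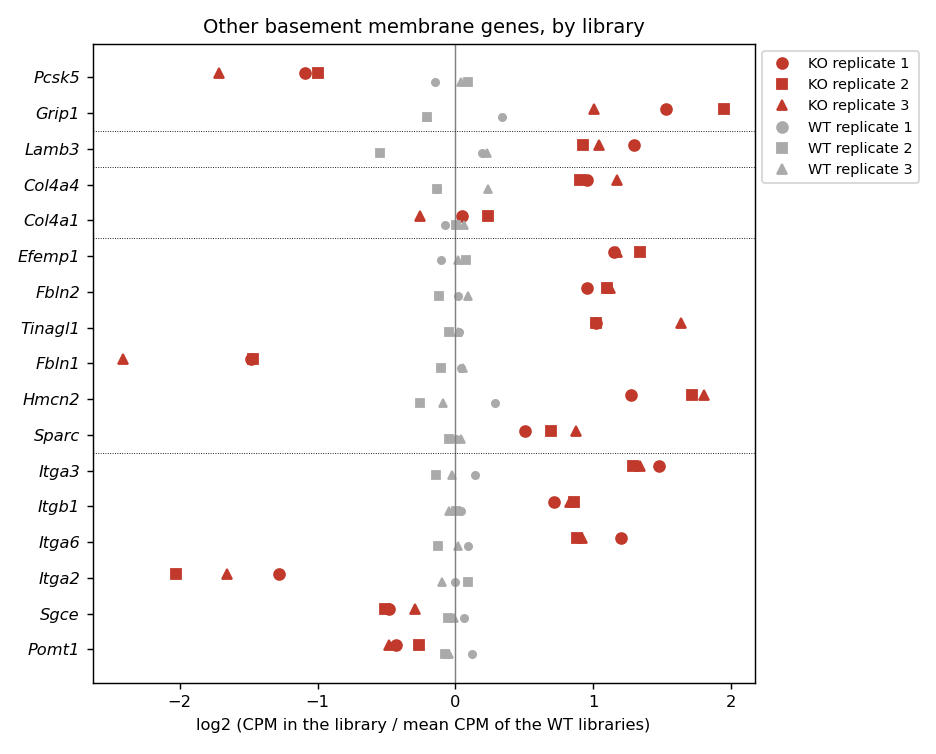
Log2 ratio of the CPM in each library to the mean CPM of the WT libraries for the named genes of the 5 lists, which dotted lines divide (partners of the Fraser complex, other laminin chains, type IV collagen, network and linker genes, receptors and glycosylation enzymes), with KO in red and WT in grey. In 16 of the 17 genes all red symbols lie on 1 side of all grey symbols, and those of Col4a1 overlap. The genes other than Col4a1 were named for an adjusted p under 0.05 in these same libraries. Their separation is therefore in large part a result of that choice. Of all genes tested, 28.2% had all KO libraries below WT and 26.6% had them above.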

How the data were processed

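RNA-seq of 3 WT and 3 KO cultures was analysed. As the methods of the study and the submitters' processing notes state, the authors made stranded poly(A) libraries, used HISAT2 2.1.0 for alignment of read pairs (GRCm38/mm10) and computed FPKM with Cufflinks 2.1.1. The deposited counts per gene are raw, and the counting program is not given in the sources used here. The authors deposited FPKM values for 12633 genes, used here for the FPKM threshold (a genotype mean above 1, since the methods do not say over which samples) and as an alternative for shares. Their log2 fold change and adjusted p-value (FDR) columns were deposited too and were not used. A second copy of the counts differed in 0 values.

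In R 4.3.3 with edgeR 4.0.16, counts were normalized by TMM and filtered with filterByExpr, and the genotypes were compared over all genes by the quasi-likelihood test without covariates, with Benjamini-Hochberg adjustment. "Rose" and "fell" mean an adjusted p under 0.05. The standard error was taken as the size of the log2 fold change over the root of F. Shares were compared by an exact permutation test in scipy 1.17.1. The fits over all genes were first run on simulated counts, which held no outlying library such as KO3. The permutation test was not among them. The labels do not say whether same-numbered samples were paired. Correlations of same-numbered deviations were -0.066, 0.037 and 0.011, which show no pairing but cannot exclude it. Alternatives were RLE factors, library size only, other count filters, DESeq2 1.42.0, edgeR's exact test, limma 3.58.1 voom, a replicate block, each library left out and, added after seeing the data, a term for Ddx3y.

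The 10 genes, the 5 pathway lists and the 7 marker lists (fibroblast, epithelial, endothelial, macrophage, muscle, mural, Schwann and neural) were chosen with earlier results of these data known. Of each pathway list up to 6 genes with the lowest adjusted p under 0.05 are named, or the most abundant until 2 are named. A list gene that is counted but not named is not reported here. The other named genes of the lists (Agrn, Hspg2, Npnt, Dag1, Lamb2, Lama1, Lama3 and Frem3) include genes that the shares need (Lama1 and Lama3), and the rest were named after their values were seen, as were Krt8, Thy1, Pdgfra, Krt19, Acta2 and Nes among the markers. Positions are from GENCODE M21 (GRCm38). Of 74 genes looked up, 73 were in the count table, and all 73 had a position there.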

Additional observations from a re-analysis of the deposited data

How the results depend on the processing

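Of the 10 genes, 3 fell with all libraries, and this count was 0 at an adjusted p under 0.01 and 0 with a term for the presence of Ddx3y counts. With 1 library left out it was 0 to 6 (0 without any 1 WT library, 6 without KO3), and the count of those that rose ranged from 0 to 2. By the thresholds of the study the count of lower genes was 2 with DESeq2's Wald test, 2 with edgeR's exact test and 0 to 3 with 1 library left out. Of the other basement membrane genes, 6 fell and 12 rose. The count that fell was 3 at an adjusted p under 0.01 and 0 with the term for Ddx3y, and 3 to 12 with 1 library left out. The count that rose was 5 with the term for Ddx3y and 9 to 23 with 1 library left out. Shares of all genes were taken only with all libraries and without KO3. The other counts therefore have no share beside them.

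With the replicate number as a block, 2 of the 10 genes fell and 0 rose (Frem1, log2 fold change -1.64, adjusted p = 0.0389, and Lama4, -0.32, adjusted p = 0.0496, edgeR's quasi-likelihood test), while Fras1 had an adjusted p of 0.0505. In the block 4 of the other genes fell and 11 rose. The labels link these samples only by that number.

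Signs turned for Lama5 (0.30 without KO3 and 0.25 with the term for Ddx3y), Lamb1 (0.064 and 0.057, and from -0.128 to 0.064 with 1 library left out), Nid1 (0.076 and 0.17, and from -0.111 to 0.076) and Col4a1 (-0.037 by library size only, and from -0.093 without KO2 to 0.149 without KO3). The share of Lama4 among alpha chains differed by -0.38 percentage points, by 0.071 in shares of counts, and by -7.21 to 3.40 with 1 library left out. That of Nid2 differed by 5.30 points, and by 3.17 to 8.81 with 1 library left out. Over all alternatives Frem2 had log2 fold changes from -3.42 to -1.67, and its adjusted p was under 0.05 with limma voom (0.0424) and without KO3. Every fit with 1 library left out has fewer degrees of freedom. Of the 10 genes, 0 passed as lower without any 1 WT library and 6 without KO3. The cause of these shifts was not tested. Low counts limit the precision of the values of Frem2 in KO3 (5 counts), Grip1 and Col4a4.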
